A study of Mus musculus with 16 samples.

Results

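Cadherins and protocadherins are calcium-dependent adhesion proteins of the cell surface, and 92 protein-coding mouse genes of this superfamily, named Cdh or Pcdh with a number or a cluster letter, were followed among the 56748 genes of a count table of mouse colon muscle. They were chosen by gene name alone and comprised 5 type I cadherins (Cdh1, Cdh2, Cdh3, Cdh4 and Cdh15), 13 type II cadherins, 5 other cadherins (Cdh13, Cdh16, Cdh17, Cdh23 and Cdh26), 11 non-clustered protocadherins, and the Pcdha, Pcdhb and Pcdhg clusters with 14, 22 and 22 genes. RNA had been sequenced from the longitudinal muscle with its attached myenteric plexus (LMMP) in 16 libraries, 4 for each genotype and colon segment. HSCR mice were Ednrb-/- (allele Ednrb tm1Ywa, hybrid C57BL6/J-129Sv background), a model of Hirschsprung disease that lacks the endothelin receptor B in every cell. WT mice were their Ednrb+/+ littermates, and mice of both sexes were 2 to 4 weeks old. The proximal HSCR segment was defined in the study by colonic distention and by staining of ganglia, and the distal colon of these mice is aganglionic. The labels of all 16 libraries name the proximal colon in the tissue entry, so the segment was taken from the titles, and in replicates 1 and 2 the library names share a number across both segments and both genotypes. The labels do not say whether that number marks a litter, a day or a mouse.

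Classical cadherins of type I and type II bind the same or related cadherins on the neighboring cell and are linked by catenins to the actin cytoskeleton. Clustered protocadherins are made from arrays of alternative first exons, each with its own promoter, and the combination a neuron expresses gives it a surface identity, whereas non-clustered protocadherins of the delta group act through partners such as the WAVE actin regulators. In the gut wall E-cadherin marks the epithelium, VE-cadherin the endothelium, and N-cadherin the neural crest cells that form the enteric nervous system as well as muscle cells.

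Among the members, Pcdh10, Cdh8 and Pcdh9 were lower in every HSCR proximal library than in every WT proximal library. Cdh1 ranged from 0.0864 to 487 counts scaled to library size (CPM) between libraries. The Pcdha cluster was highest in 6 libraries of replicates 3 and 4. It summed to between 0 and 0.972 CPM in HSCR distal libraries and to between 0 and 2.22 CPM in replicates 1 and 2 of all groups. No member passed an adjusted p of 0.05 in any comparison with edgeR's quasi-likelihood test fitted over all 16 libraries. Of the 92 genes, 82 passed the filter on low counts and were tested, within 18619 genes tested in all. The 10 genes that were not tested were Pcdha1, Pcdha4, Pcdha7, Pcdha8, Pcdha11, Pcdhb1, Pcdhga10, Pcdh8, Cdh16 and Cdh22.

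The libraries held between 21384372 and 45831881 reads counted on genes, and mitochondrial genes took between 4.32% and 49.8% of them. Replicates 1 and 2 and replicates 3 and 4 carry library names of different series, and 5 of the former stood apart by members without a single count: 49 of 92 members in WT proximal 2, 51 in HSCR distal 2, 43 in WT distal 1, 33 in HSCR proximal 2 and 29 in WT distal 2, against 4 to 19 in replicates 3 and 4. In WT proximal 2 the remaining 43 members all had at least 10 counts and none had 1 to 9. Xist was at 0 CPM in all 8 libraries of replicates 1 and 2, and above 70 CPM in 6 of the 8 libraries of replicates 3 and 4, so this female marker was found in the second name series alone. The part of sex in the differences between the series was not tested. Ednrb itself was at 67.7, 33.9, 64.2 and 53.0 CPM in WT proximal replicates 1 to 4 and at 7.85, 12.6, 36.3 and 35.8 in HSCR proximal. It was at 12.2, 16.1, 28.3 and 40.2 CPM in WT distal and at 97.0, 5.55, 5.83 and 9.57 in HSCR distal, the highest of the 16 values lying in the library labelled HSCR distal 1. The gene count covers all exons and does not show which part of the gene the allele removes. Hoxd13, a posterior patterning gene, was at 112 to 201 CPM in WT distal and at 0.904 to 23.9 in WT proximal, but at 125 in the library labelled HSCR proximal 1 and at 0.629 and 14.1 in those labelled HSCR distal 1 and 4. The leading results are therefore also given without both HSCR libraries labelled 1. HSCR distal 4 was kept in those fits and was left out only where each library was left out in turn.

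Cell type content also differed between libraries. As the mean log2(CPM + 0.5) over 14 enteric neuron genes, in which no cadherin is included, WT proximal libraries stood at 5.01, 6.18, 7.71 and 7.43, HSCR proximal at 2.30, 2.77, 6.28 and 6.07, WT distal at 2.54, 4.33, 7.07 and 6.68, and HSCR distal at 5.86, 2.30, 1.45 and 0.43. The summed CPM of the list was 756 to 4030 in WT proximal, 97.6 to 2990 in HSCR proximal, 156 to 2660 in WT distal and 24.0 to 1500 in HSCR distal, and Chat had no count in at least 1 library of the last 3 groups. All 14 neuron genes were tested, none was called, and 13 were lower in HSCR than in WT in the proximal colon and 14 in the distal colon. The 13 epithelial genes summed to 47.5 to 3830 CPM in WT proximal, 254 to 18000 in HSCR proximal, 156 to 2600 in WT distal and 146 to 5880 in HSCR distal. Fewer cells of a type and less RNA per cell cannot be told apart in these bulk libraries. The p-values set a difference between groups against the spread between libraries.

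**Figure D1:**
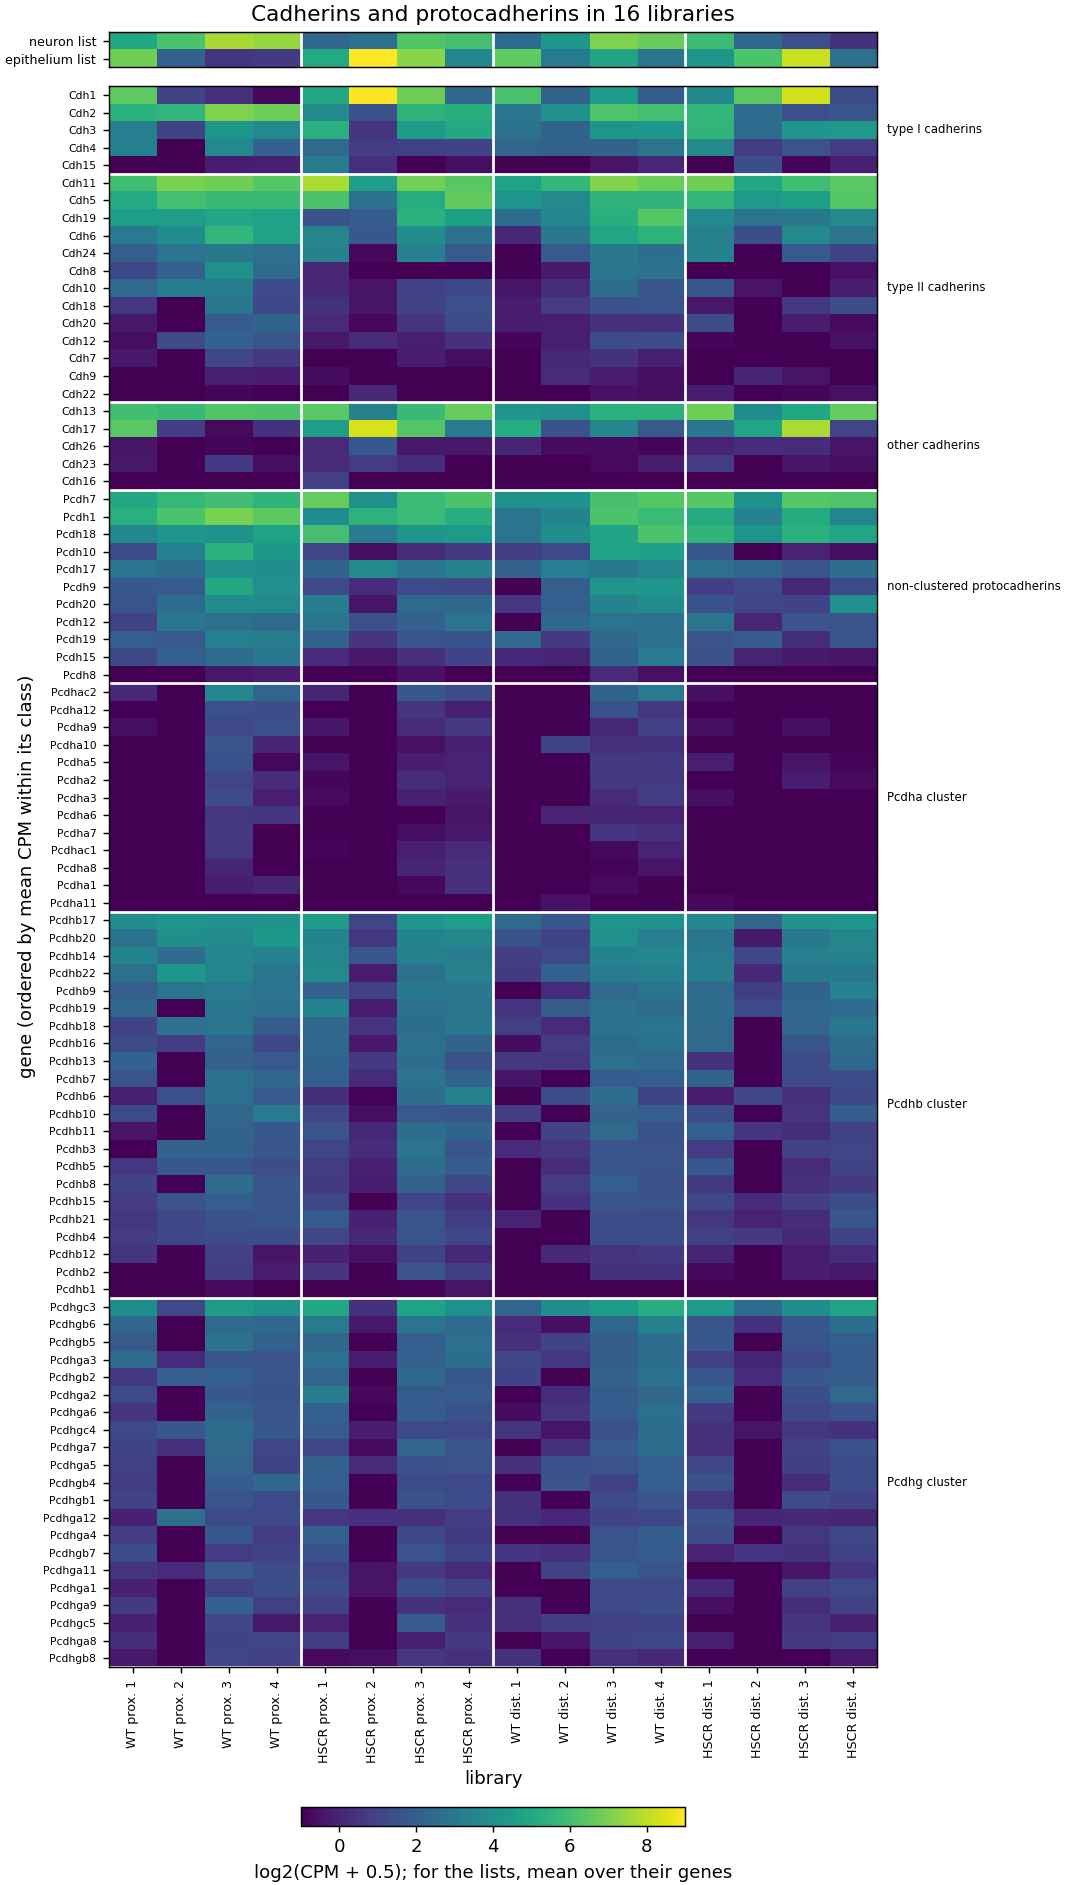
Heat map of log2(CPM + 0.5) for the 90 members with any count (rows, grouped by class and ordered by mean CPM) in the 16 libraries (columns), with the mean of the enteric neuron and epithelium lists above. The darkest cells are values at or near 0 and gather in replicates 1 and 2 and in the Pcdha cluster; Cdh1 and Cdh17 follow the epithelium row.

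Pcdh10, Cdh8 and Pcdh9, the 3 genes with the lowest fitted log2 fold changes among those without overlap, lie on different chromosomes, and the sequence around the start of each is shown because they were low together in the HSCR proximal libraries. Pcdh10 (ENSMUSG00000049100) lies on chromosome 3 of mm39 from 45332833 to 45390058, Cdh8 (ENSMUSG00000036510) on chromosome 8 from 99751103 to 100143103, and Pcdh9 (ENSMUSG00000055421) on chromosome 14 from 93250846 to 94128115. The promoter windows, 250 bases before to 50 after a start site, were taken from RefSeq on GRCm38.p6 at chr3:45378148-45378447 (plus strand), chr8:99416422-99416721 (minus strand) and chr14:93890630-93890929 (minus strand), and capitals mark each CG pair.
Pcdh10: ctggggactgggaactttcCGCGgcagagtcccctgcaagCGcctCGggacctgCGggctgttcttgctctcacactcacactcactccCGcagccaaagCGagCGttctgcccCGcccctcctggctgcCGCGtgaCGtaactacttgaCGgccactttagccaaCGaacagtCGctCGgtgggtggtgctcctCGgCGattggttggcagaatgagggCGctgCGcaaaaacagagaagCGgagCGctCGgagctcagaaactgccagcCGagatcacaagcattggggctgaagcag
Cdh8: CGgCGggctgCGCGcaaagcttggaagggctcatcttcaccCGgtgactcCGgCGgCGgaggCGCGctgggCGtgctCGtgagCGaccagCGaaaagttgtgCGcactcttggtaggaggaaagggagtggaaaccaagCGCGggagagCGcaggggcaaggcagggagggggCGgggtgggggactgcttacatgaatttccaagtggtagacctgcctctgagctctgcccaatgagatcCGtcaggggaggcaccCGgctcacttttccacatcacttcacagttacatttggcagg
Pcdh9: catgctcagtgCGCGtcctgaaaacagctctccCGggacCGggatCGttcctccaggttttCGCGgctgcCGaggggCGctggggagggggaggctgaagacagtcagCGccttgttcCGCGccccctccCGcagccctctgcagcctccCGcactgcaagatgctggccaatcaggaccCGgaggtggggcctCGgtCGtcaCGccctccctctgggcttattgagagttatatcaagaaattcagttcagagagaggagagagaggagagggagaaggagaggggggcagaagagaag
The 300 bases held 24 CG pairs in Pcdh10, 21 in Cdh8 and 18 in Pcdh9, against a median of 7 over the 27025 promoters of the table and 13 over the 22 members that had an entry. As many CG pairs or more were found in 20%, 25.0% and 30.1% of all promoters. Neither the letters TATAAA nor the letters CAGCTG, searched on both strands, were found in the 3 windows, and 14.2% and 16.1% of all promoters held them.

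Pcdh10, a delta-2 protocadherin that recruits the WAVE complex in neurons, was at 1.96, 9.58, 41.0 and 19.6 CPM in WT proximal replicates 1 to 4 and at 1.65, 0.146, 0.698 and 1.07 in HSCR proximal. The means were 18 ± 16.9 and 0.892 ± 0.633 CPM (SD, n = 4), and the groups did not overlap, though WT 1 lay close to the library labelled HSCR 1. The fitted log2 fold change was -4.33 (SE 1.42) with an unadjusted p of 0.00802 and an adjusted p of 0.705 (edgeR's quasi-likelihood test, all 16 libraries). Without both HSCR libraries labelled 1 it was -4.78 with an adjusted p of 0.721.

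Cdh8, a type II cadherin of neurons, was at 1.73, 3.65, 15.5 and 5.31 CPM in WT proximal libraries and at 0.55, 0, 0 and 0 in HSCR proximal. The only HSCR proximal library with counts, 22 in all, was the one labelled 1, which carries a distal level of Hoxd13. The fitted log2 fold change was -5.51 (SE 2.01, unadjusted p = 0.0148, adjusted p = 0.705 by edgeR), a fit in which 3 of 4 HSCR values were 0. Without both HSCR libraries labelled 1 no HSCR proximal library had a count, and the fitted value of -10.81 (unadjusted p = 0.00257, adjusted p = 0.721 by edgeR) is no measured size. Pcdh9, a delta-1 protocadherin of the nervous system, was at 2.79, 3.21, 32.0 and 15.6 CPM in WT and at 1.85, 0.731, 1.78 and 1.68 in HSCR. Its HSCR values were close together and its WT values were not, and the log2 fold change was -3.15 (SE 1.23, adjusted p = 0.705 by edgeR), or -3.24 (SE 1.48) without both HSCR libraries labelled 1.

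Pcdh15, which forms tip links with Cdh23 in hair cells, was at 1.73, 3.46, 5.22 and 7.43 CPM in WT and at 0.675, 0.293, 0.772 and 1.5 in HSCR proximal libraries. All 4 WT values were above the highest HSCR value, and the log2 fold change was -2.46 (SE 0.99, adjusted p = 0.705 by edgeR), or -2.34 (SE 1.03) without both HSCR libraries labelled 1. Cdh10, another type II cadherin, was at 4.82, 8.37, 8.78 and 2.07 CPM in WT and at 0.575, 0.219, 1.43 and 1.72 in HSCR. Its groups were separated by the gap between 2.07 and 1.72, and it had a log2 fold change of -2.60 (SE 1.27, unadjusted p = 0.0575), or -2.37 (SE 1.25) without both HSCR libraries labelled 1.

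Cdh26, a cadherin described in epithelial cells, was higher, at 0.65, 2.85, 0.276 and 0.286 CPM in HSCR and 0.226, 0, 0.0475 and 0 in WT proximal libraries. The highest value was in HSCR proximal 2, which had the highest epithelium list, and the WT values rested on few reads. WT proximal 1 had a list of 6.82, above 5.12 and 3.58 in HSCR proximal 1 and 4, but a lower Cdh26 than either. The part of epithelial RNA was not tested. Its log2 fold change was 4.00 (SE 1.38, unadjusted p = 0.0107, adjusted p = 0.705 by edgeR), or 4.18 (SE 1.55) without both HSCR libraries labelled 1.

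Read over all tested members, the proximal comparison had 0 called members and 0 called genes of 18619 (0.0%) with edgeR's quasi-likelihood test. With an unadjusted p under 0.05 there were 5 members (6.1%), 1 higher and 4 lower, against 7.06% of all genes tested, 4.05% higher and 3.01% lower. DESeq2 called 0 members, with 8 of 82 at an unadjusted p under 0.05 against 10% of all genes, and 63 genes in all (0.338%). The adjusted p of Pcdh10 was 0.0504 with DESeq2. Groups did not overlap for 5 lower members (6.1%; Pcdh10, Pcdh9, Cdh8, Cdh10 and Pcdh15) and 1 higher member (1.22%; Cdh26), against 2.6% and 2.22% of all genes. By class, 11 of 12 tested type II cadherins were lower with a median log2 fold change of -1.27, 7 of 10 non-clustered protocadherins were lower with a median of -0.99, and 8 of 9 Pcdha genes were lower with a median of -1.43. Type I cadherins had a median of 1.2 with 3 of 5 genes higher, and the other cadherins one of 1.51 with 3 of 4 higher. The Pcdhb and Pcdhg medians were 0.08 and 0.28, and that of all genes 0.09. Among all genes tested 44% were lower. Without both HSCR libraries labelled 1 the medians of the type II cadherins, non-clustered protocadherins and Pcdha genes were -1.24, -1.06 and -1.01.

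The test named in the study's methods, a likelihood ratio test with 4 RUVr factors estimated from residuals, called 8 members in the same comparison (Cdh2, Cdh8, Cdh10, Cdh26, Pcdh1, Pcdh10, Pcdh15 and Pcdhb2). It called 10.5% of all genes tested. Pcdh10 had a log2 fold change of -3.83 there, with an adjusted p of 2.51e-07.

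**Figure D2:**
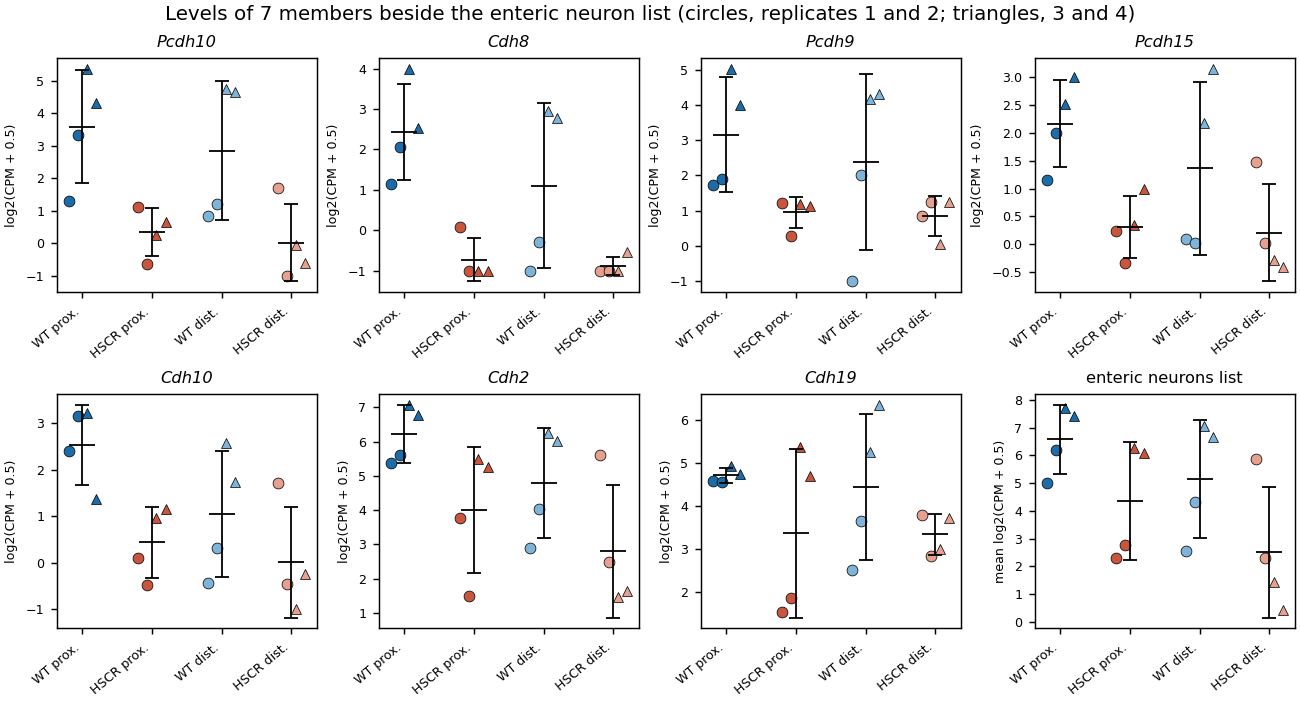
Level of 7 members and of the enteric neuron list in each library, as log2(CPM + 0.5), with the mean and SD of 4 libraries per group as bars. In the proximal colon all WT points of Pcdh10, Cdh8, Pcdh9, Pcdh15 and Cdh10 lie above all HSCR points. The neuron list of HSCR proximal 1 and 2 lies below all WT proximal values. That of HSCR proximal 3 and 4 lies among them, but below WT proximal 3 and 4.

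The neuron list moved with these members, and its part in the result was not tested. The difference between a member's log2 level and the neuron list of the same library was therefore set out. It is given first for the 8 WT libraries and for the 3 HSCR libraries in which the list was above 5. This limit was not applied to WT, where WT distal 1 and 2 had a list of 2.54 and 4.33. Pcdh10, Cdh8 and Pcdh9 had been chosen by their low HSCR proximal levels, so HSCR proximal 3 and 4 give no separate test of them. In the WT libraries the difference for Pcdh10 was between -3.71 and -1.72. It was -6.02 and -5.41 in HSCR proximal 3 and 4 and -4.15 in the library labelled HSCR distal 1, below all 8 WT values. For Cdh8 the WT differences were between -4.89 and -3.54, and those 3 HSCR libraries had -7.28, -7.07 and -6.86, each at a Cdh8 count of 0, so that these values are set by the added 0.5 CPM. Pcdh9 had -5.09, -4.94 and -5.0 in the same 3 libraries and -4.29 to -2.33 in WT. The other members set out in this way did not lie below all WT values. Pcdh15 had -5.93, -5.07 and -4.39 against -5.19 to -2.45 in WT, so that HSCR proximal 3 alone lay below them. Cdh10 had -5.33, -4.92 and -4.14 and lay within its WT range of -6.06 to -2.60, and Pcdhac2 had -4.51, -4.74 and -6.44 within -7.18 to -3.54. Pcdh19 lay within its WT range too. Cdh6 lay below all WT values in HSCR proximal 4 alone (-3.29), and Cdh12 in HSCR proximal 3 and in the library labelled HSCR distal 1 (-6.42 and -6.71). In libraries with a low neuron list, WT distal 1 included, the added 0.5 CPM set how low a difference could be. The HSCR libraries with a list below 5 had -3.4 to -1.03 for Pcdh10 and -2.47 to 0.825 for Pcdh9. For Cdh8 they had -3.77 to -0.979, and none of these differences lay below all WT values. Pcdh10 and Pcdh9 lay above all WT values in the library labelled HSCR proximal 1 and in HSCR distal 3 and 4.

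Cdh2, N-cadherin, was at 41.1, 47.9, 134 and 110 CPM in WT proximal and at 13.2, 2.30, 44.7 and 38.0 in HSCR proximal, so that HSCR 3 lay inside the WT range. Relative to the neuron list it was at -0.78 and -0.80 in HSCR proximal 3 and 4 and at -0.26 in the library labelled HSCR distal 1, within the WT range of -0.82 to 0.37. Its log2 fold change was -1.76 (SE 1.05, adjusted p = 0.745 by edgeR).

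Cdh19, a cadherin of Schwann cells and other glia of neural crest origin, was at 23.7, 23.2, 30.3 and 26.4 CPM in WT proximal and at 2.40, 3.14, 41.3 and 25.7 in HSCR proximal libraries. Replicates 1 and 2 of HSCR were low and replicates 3 and 4 were not, and the difference within the pairs of replicates was -2.88 and 0.20 on the log2(CPM + 0.5) scale. The enteric glia list summed to 337 to 840 CPM in WT proximal and 111 to 357 in HSCR proximal, and its part was not tested. Cdh6, a type II cadherin of neural crest cells, was at 8.36 to 47.6 CPM in WT proximal and 2.78 to 14.7 in HSCR proximal, with a log2 fold change of -1.46 (SE 0.92). Pcdh19, a delta-2 protocadherin whose human gene is linked to epilepsy, was at 2.95 to 9.35 CPM in WT and 0.914 to 3.75 in HSCR proximal (log2 fold change -1.37, SE 0.66, adjusted p = 0.709 by edgeR). Cdh4, R-cadherin, overlapped between the groups at 0 to 12.9 and 1.28 to 5.0 CPM.

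Epithelial cadherins gave the widest range of levels. Cdh1, E-cadherin (chromosome 8 of mm39, 107329983 to 107396878), was at 90.7, 1.55, 0.759 and 0.0864 CPM in WT proximal libraries, 31.9, 487, 114 and 4.62 in HSCR proximal, 69.6, 4.04, 22.2 and 3.38 in WT distal and 12.3, 89.5, 320 and 2.07 in HSCR distal. All 4 groups overlapped, and replicate 4 was low in each. The log2 fold change was 2.78 (SE 1.86, adjusted p = 0.765) in the proximal and 2.10 (SE 1.81, adjusted p = 1) in the distal colon by edgeR.

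Cdh17, LI-cadherin of the intestinal epithelium, was at 85.3, 1.25, 0.0949 and 0.864 CPM in WT proximal libraries and at 23.9, 333, 80.7 and 8.16 in HSCR proximal. In WT distal it was at 35.9, 2.37, 11.7 and 2.98 CPM and in HSCR distal at 7.06, 28.6, 210 and 1.61. Over the libraries with at least 20 counts of both genes the counts of Cdh17 per count of Cdh1 ranged from 0.319 in HSCR distal 2 to 1.77 in HSCR proximal 4. The part of epithelial RNA in the proximal difference was not tested, and all 13 epithelial list genes were higher in HSCR than in WT there (median log2 fold change 3.14, none called).

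**Figure D3:**
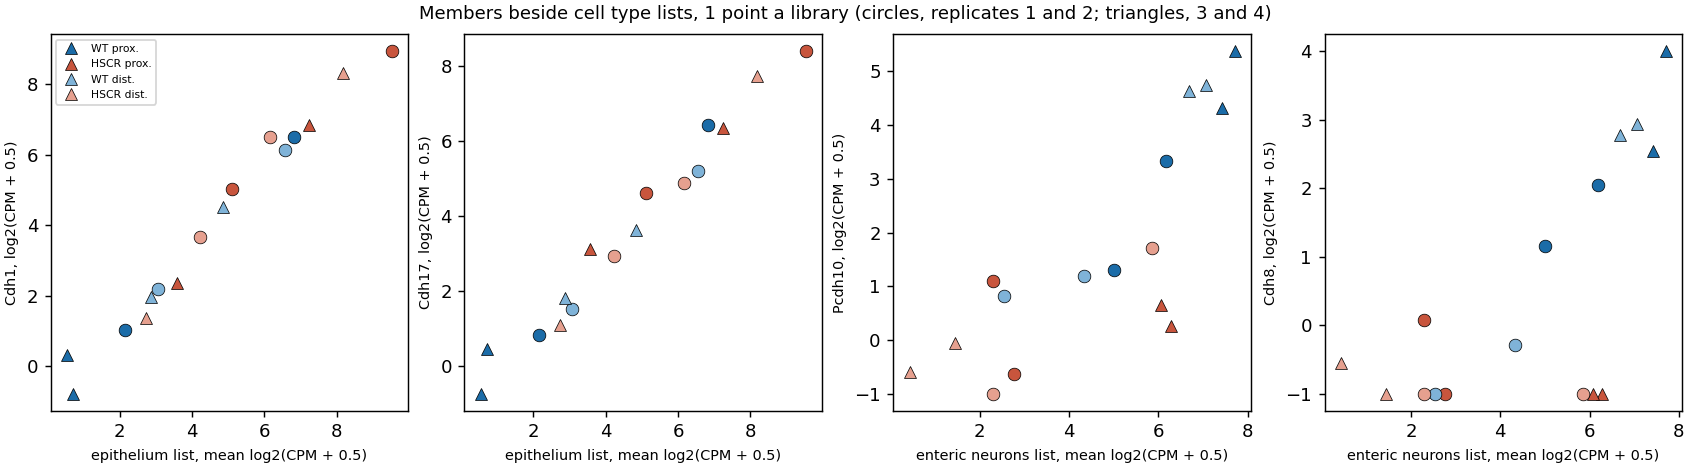
Log2(CPM + 0.5) of Cdh1 and Cdh17 against the mean of the epithelium list and of Pcdh10 and Cdh8 against the enteric neuron list, 1 point a library. The epithelial cadherins lie along a line over all 16 libraries, while Pcdh10 and Cdh8 are low in 3 libraries labelled HSCR whose neuron list lies near 6. The circle among them is the library labelled HSCR distal 1, whose Ednrb and Hoxd13 go against its label.

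Levels were also ordered per length. As the median over libraries, per kb of the deposited gene length, Cdh5 stood at 10.6 CPM per kb, Cdh11 at 9.63, Pcdh7 at 5.47, Cdh2 at 4.90, Cdh13 at 4.80, Pcdh1 at 4.55, Cdh19 at 4.28 and Cdh3 at 4.09. Cdh1 was at 3.77 by the median but at 17.1 by the mean, and Cdh17 at 2.22 and 11.6. The ranges of neighbors in this order over the libraries overlapped.

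Cdh5, the VE-cadherin of endothelial junctions, was at 33.8, 65.6, 54.8 and 55.0 CPM in WT proximal and at 71.3, 6.14, 35.7 and 95.6 in HSCR proximal libraries. The HSCR values spanned the WT values, with a log2 fold change of -0.003 (SE 0.65) in the proximal and 0.53 (SE 0.65) in the distal colon. The endothelium list summed to 147 to 303 CPM in WT proximal and 75.8 to 394 in HSCR proximal. Cdh11, OB-cadherin of mesenchymal cells, was at 61.6 to 128 CPM in WT proximal, 24.1 to 213 in HSCR proximal, 26.6 to 138 in WT distal and 31.5 to 113 in HSCR distal, and all groups overlapped. Pcdh12, an endothelial protocadherin, was at 1.43 to 7.15 CPM in WT proximal and 2.27 to 7.20 in HSCR proximal.

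Cdh3, P-cadherin, was at 9.19, 1.58, 18.5 and 12.5 CPM in WT proximal and at 40.3, 0.951, 21.9 and 32.6 in HSCR proximal libraries. HSCR proximal 2 was the lowest of these 8 values and the other 3 were above all WT values, with a log2 fold change of 1.20 (SE 0.90, adjusted p = 0.791 by edgeR). Cdh15, M-cadherin of skeletal muscle, was at 8.25 CPM in the library labelled HSCR proximal 1 and at 2.16 in HSCR distal 2, and at most at 0.804 elsewhere. The skeletal muscle list was at 6.71 and 6.04 in these libraries, and at 5.68 in WT distal 1, where Cdh15 had no count. Cdh16, the kidney cadherin, had counts in 2 libraries alone, at 1.37 CPM in the one labelled HSCR proximal 1 and at 0.027 in HSCR distal 3.

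Among the non-clustered protocadherins Pcdh7 was at 30.2, 49.7, 60.4 and 46.2 CPM in WT proximal and at 98.8, 15.8, 55.7 and 73.7 in HSCR proximal libraries, Pcdh18 at 12.3 to 27.4 and 7.97 to 65.0, and Pcdh17 at 5.53 to 16 and 4.10 to 13.3. These 3 genes overlapped between genotypes in both segments. Pcdh1 was at 40.7, 70.6, 125 and 89.3 CPM in WT proximal and at 14.2, 43.1, 55.7 and 39.4 in HSCR proximal. WT 1 lay inside the HSCR range, and the log2 fold change was -1.10 (SE 0.68, adjusted p = 0.752 by edgeR).

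The distal colon, aganglionic in HSCR mice, was compared in the same way. Pcdh10 was at 1.27, 1.79, 26.4 and 24.5 CPM in WT distal and at 2.77, 0, 0.459 and 0.161 in HSCR distal libraries. Replicates 3 and 4 were far apart between genotypes and replicates 1 and 2 were not, and the log2 fold change was -3.98 (SE 1.40, unadjusted p = 0.0121, adjusted p = 1 by edgeR). Cdh8 was at 0, 0.317, 7.18 and 6.34 CPM in WT distal and at 0, 0, 0 and 0.184 in HSCR distal. Pcdh9 was at 0, 3.52, 17.6 and 19.4 CPM in WT and at 1.32, 1.86, 0.54 and 1.89 in HSCR distal libraries, so that WT 1 lay below all HSCR values.

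Cdh12, a type II cadherin of brain, was at 0.0668, 0.404, 1.98 and 2.04 CPM in WT distal and at 0.0572, 0, 0 and 0.184 in HSCR distal libraries. WT 1 lay among the HSCR values, and the gene had the smallest unadjusted p of the members in this comparison, 0.00826, with a log2 fold change of -4.09 (SE 1.35, adjusted p = 1 by edgeR). Other genes with a small p, Pcdha12, Pcdha10, Cdh7 and Pcdha6, had no count in any HSCR distal library, so that their folds are bounds set by a floor of 3 counts per library. Against WT distal means (± SD, n = 4), Pcdha12 was at least 9.6-fold lower than 0.835 ± 1.11 CPM and Pcdha10 at least 9.2-fold lower than 0.799 ± 0.638. Cdh7 was at least 5.52-fold lower than 0.48 ± 0.373 CPM and Pcdha6 at least 4.22-fold lower than 0.367 ± 0.246. These bounds hold for the observed means and leave out the spread of WT. In WT distal 1 all 14 Pcdha genes were at 0 as well.

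Of the 82 members 0 were called in the distal comparison, and 0 of 18619 genes (0.0%), by edgeR's quasi-likelihood test. With an unadjusted p under 0.05 there were 9 members, all lower (11%; Cdh7, Cdh8, Cdh12, Pcdh9, Pcdh10, Pcdha6, Pcdha10, Pcdha12 and Pcdhac2), against 3.8% of all genes in either direction, 1.49% higher and 2.31% lower. DESeq2 called 0 members and 33 genes (0.177%), with 12 members at an unadjusted p under 0.05 against 5.57% of all genes. No member's groups were without overlap, against 0.822% of all genes higher and 1.06% lower. The median log2 fold change of the members was -0.53 with 58 of 82 lower, and that of all genes 0.06 with 44.6% lower. By class, type I and other cadherins had medians of 0.97 and 1.58, with 3 of 5 and 4 of 4 genes higher. Type II cadherins and non-clustered protocadherins had medians of -1.13 and -0.71, with 10 of 12 and 8 of 10 genes lower. The members' median was -0.93 without WT distal 1 and -0.25 without WT distal 4. Leaving out both HSCR libraries labelled 1 gave 14 of 85 members at an unadjusted p under 0.05, against 5.98% of all genes, and 0 called. A fit and filter of the 2 distal groups alone gave 2 of 65 tested members, near the 2.64% of all genes, and 0 called. The larger share of members in the main fit was therefore not kept there. The likelihood ratio test with RUVr factors called 9 members (Cdh2, Cdh7, Cdh8, Cdh12, Pcdh10, Pcdha6, Pcdha10, Pcdhac2 and Pcdhga11) against 3.73% of all genes.

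Within replicates 3 and 4 alone, a fit chosen after the data were seen because the other libraries held so many members at 0, 9 of 86 tested members were called in the distal comparison, against 4.38% of all genes. All 9 were lower in HSCR. Cdh2 had a log2 fold change of -4.97 (SE 0.26, adjusted p = 0.000538), from 75.5 and 64.3 CPM in WT to 2.24 and 2.60 in HSCR. Cdh19 had one of -2.68 (SE 0.47, adjusted p = 0.0205), from 37.8 and 81.3 CPM to 7.55 and 12.7. Pcdh10 (-6.47, adjusted p = 0.00225), Pcdh15 (-4.53, adjusted p = 0.0105) and Pcdh9 (-4.05, adjusted p = 0.0149) were called as well, and Cdh7, Pcdha3, Pcdha12 and Pcdhac2 had no count in either HSCR library. This fit rests on 2 libraries a group, and HSCR distal 4 in it had a Hoxd13 level within the WT proximal range. In replicates 1 and 2 the difference of Cdh2 had the other sign, 0.58 against -4.59 in replicates 3 and 4 on the log2(CPM + 0.5) scale. Those replicates include the library labelled HSCR distal 1, whose Ednrb and Hoxd13 go against its label. Its neuron list was at 5.86, against 2.30 in HSCR distal 2 and 2.54 and 4.33 in WT distal 1 and 2. In the proximal colon the fit of replicates 3 and 4 called 0 members and 0 genes (0.0%), with 15 of 86 members at an unadjusted p under 0.05 against 11.2% of all genes. The neuron list differed by -5.94 in replicates 3 and 4 of the distal colon and by 0.64 in replicates 1 and 2. Its part in these calls was not tested.

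**Figure D4:**
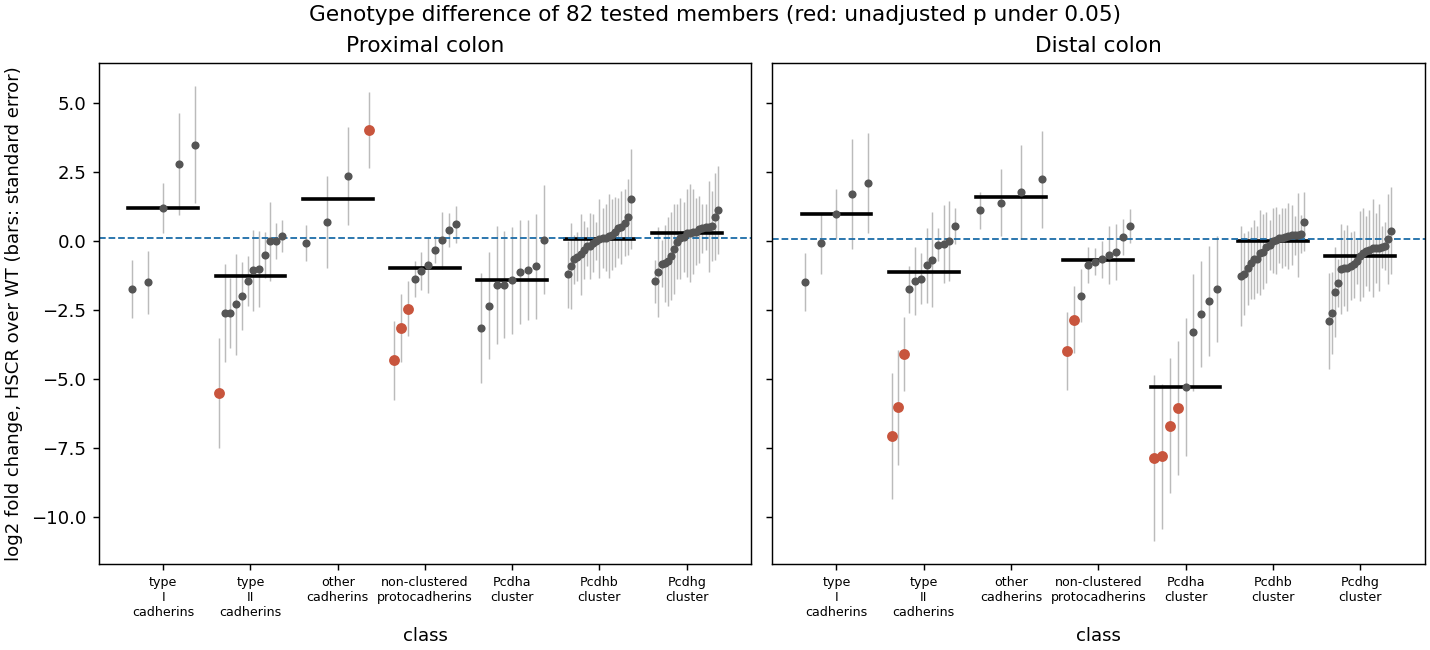
Fitted log2 fold change of HSCR over WT for the 82 tested members by class, with standard errors, in the proximal and distal colon; black bars are class medians, the dashed line is the median of all genes and red points have an unadjusted p under 0.05. The red points are Pcdh10, Cdh8, Pcdh9, Pcdh15 and Cdh26 in the proximal panel and 9 lower genes in the distal panel, where the lowest Pcdha values and Cdh7 come from a group at 0 and are no measured sizes.

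The clusters of protocadherins were read with caution, since the members of the Pcdha and Pcdhg clusters share constant exons. In the GENCODE M39 annotation (GRCm39) between 7.0% and 52.3% of the exon bases of a Pcdha gene and between 0.0% and 67.8% of those of a Pcdhg gene belonged to no other gene, against a median of 100% for the Pcdhb genes, which have single exons. How reads on shared bases and on the other strand were counted is not given in the sources used here. Pcdhga10 and Pcdha4 had no count in any of the 16 libraries, and they had 0.0% and 7.0% of unshared exon bases. The assignment of reads to single Pcdha and Pcdhg genes is uncertain for this reason.

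The Pcdha cluster summed to 0.753, 0, 28.0 and 11.7 CPM in WT proximal libraries, 1.22, 0, 7.37 and 8.02 in HSCR proximal, 0, 2.22, 12.4 and 16.9 in WT distal and 0.972, 0, 0.728 and 0.161 in HSCR distal. It was high in the 6 libraries of replicates 3 and 4 whose neuron list was above 6, and WT proximal 2 had no Pcdha count at a neuron list of 6.18. Pcdhac2, the C-type gene at the end of the cluster, was the highest Pcdha member at 0.603, 0, 11.5 and 4.28 CPM in WT proximal, 0.525, 0, 2.90 and 2.00 in HSCR proximal, 0, 0, 4.23 and 8.17 in WT distal, and 0.172, 0, 0 and 0 in HSCR distal. Next in mean level were Pcdha12 and Pcdha9, at most at 2.35 and 2.25 CPM in a library. All 9 tested Pcdha genes were lower in HSCR distal than in WT distal libraries, with a fitted median log2 fold change of -5.30 that became -2.64 with the genes at 0 set to their bounds.

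The Pcdhb cluster summed to 65.0, 87.3, 126 and 108 CPM in WT proximal, 106, 13.9, 123 and 117 in HSCR proximal, 15.9, 24.7, 119 and 105 in WT distal and 77.1, 15.2, 69.8 and 102 in HSCR distal libraries. Its low values were in replicates 1 and 2, and HSCR distal 3 and 4, where the neuron list was lowest, kept 69.8 and 102 CPM. The leading member was Pcdhb17 at 14.6, 18.9, 16.3 and 16.5 CPM in WT proximal and 21.9, 1.65, 18.9 and 23.8 in HSCR proximal, with a log2 fold change of -0.002 (SE 0.70). Pcdhb20 and Pcdhb14 followed, with log2 fold changes of -0.67 (SE 0.90) and -0.20 (SE 0.71) in the proximal and -0.16 (SE 0.90) and 0.20 (SE 0.71) in the distal colon.

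The Pcdhg cluster summed to 45.7, 16.1, 86.0 and 61.5 CPM in WT proximal, 96.5, 4.06, 77.9 and 60.5 in HSCR proximal, 15.9, 28.5, 73.0 and 113 in WT distal and 47.8, 9.13, 41.5 and 70.2 in HSCR distal libraries. All groups overlapped. Pcdhgc3 led it at 14.2, 1.81, 22.1 and 16.7 CPM in WT proximal and 31.7, 0.841, 26.5 and 15.7 in HSCR proximal, with a log2 fold change of 0.45 (SE 0.88) there and -0.19 (SE 0.88) in the distal colon. Pcdhgb6 and Pcdhgb5 were next, at 3.91 and 2.94 CPM on average. Pcdhgc5, a C-type gene of neurons, was at 0 to 1.66 CPM in WT proximal and 0 to 3.11 in HSCR proximal. Of the 21 tested genes 19 were lower in HSCR distal than in WT distal libraries, with a median log2 fold change of -0.54 and none at an unadjusted p under 0.05.

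**Figure D5:**
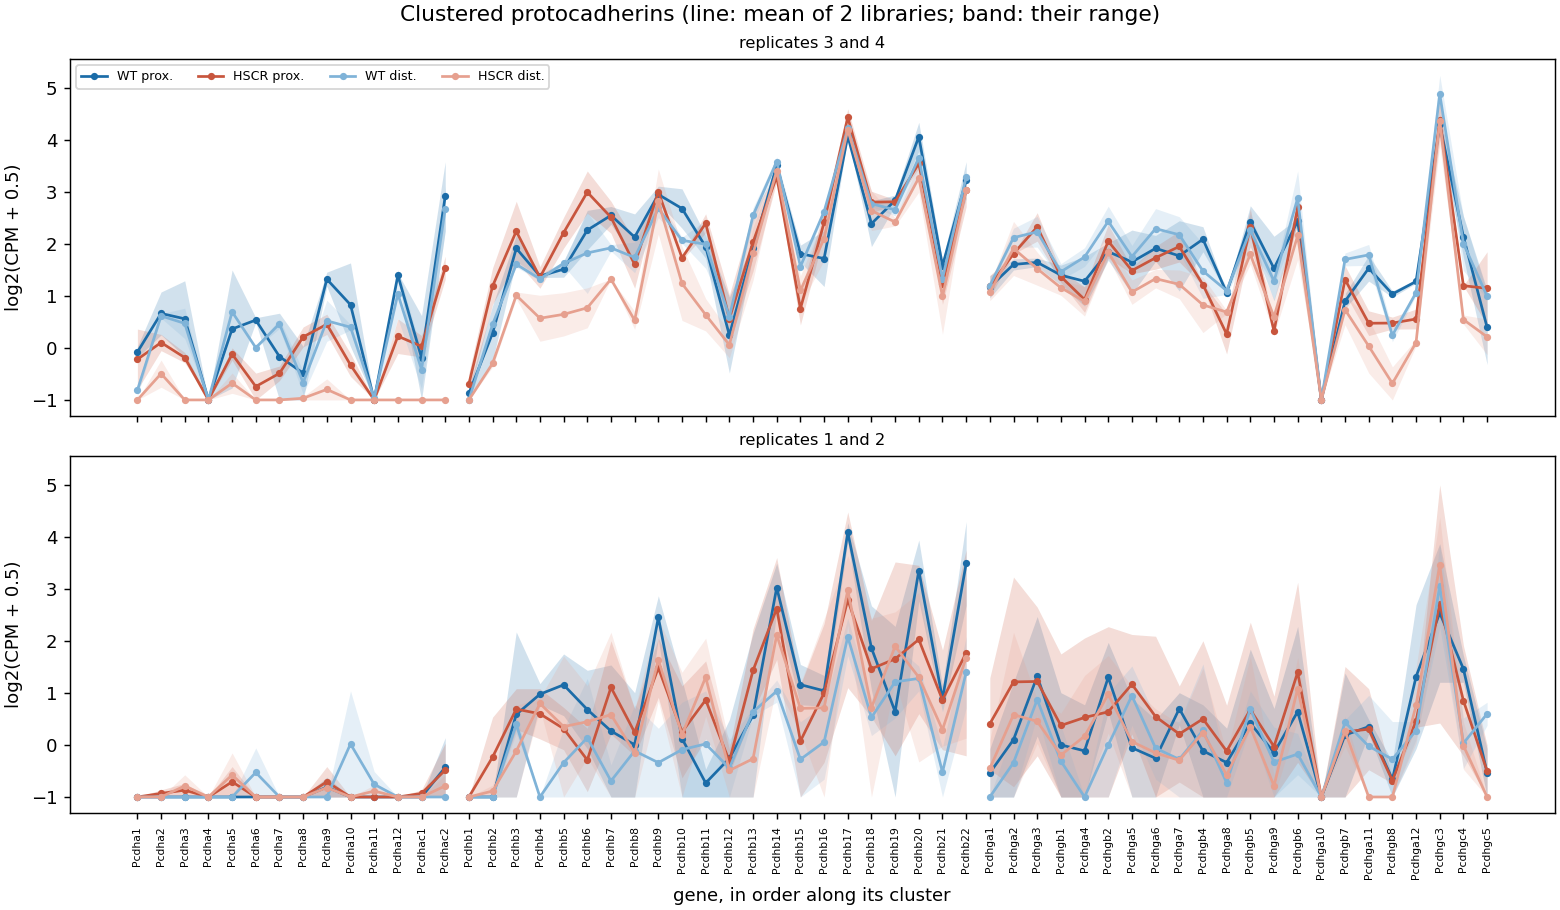
Level of the 58 clustered protocadherins as log2(CPM + 0.5), in order along each cluster, for replicates 3 and 4 (above) and replicates 1 and 2 (below); lines are means of 2 libraries and bands their range. In replicates 3 and 4 the 4 groups follow each other along the Pcdhb and Pcdhg genes, with peaks at Pcdhb17 and Pcdhgc3, and HSCR distal lies near the bottom along Pcdha and lowest from Pcdhb3 to Pcdhb8, while replicates 1 and 2 scatter widely.

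Between segments no member was called either. In WT libraries 0 of 82 members passed an unadjusted p under 0.05 with edgeR, against 4.83% of all genes (3.03% higher and 1.8% lower), and 0 members and 0.0% of genes were called. DESeq2 gave 0 members at an unadjusted p under 0.05 and called 0 members and 0.0967% of genes. The likelihood ratio test with RUVr factors called 5 members (Cdh2, Cdh13, Pcdh1, Pcdhb9 and Pcdhgc5) and 6.84% of genes. With replicate numbers as a block 2 of 82 members had an unadjusted p under 0.05, Cdh13 (0.023) and Pcdh1 (0.0405), against 4.97% of all genes, and 0 were called. Cdh13, the T-cadherin held by a lipid anchor, was at 61.9, 54.1, 77.8 and 74.3 CPM in WT proximal and at 18.7, 15.5, 41.8 and 42.5 in WT distal libraries. It was the 1 member (1.22%) whose groups did not overlap, and was lower in the distal colon, as were 1.72% of all genes. Its log2 fold change was -1.18 (SE 0.66, adjusted p = 0.956), and HSCR libraries gave 0.01 (SE 0.65). Pcdh1 had -1.16 (SE 0.69), Pcdhga12 -1.15 (SE 0.77), Cdh5 -0.81 (SE 0.65), Cdh10 -1.37 (SE 1.21) and Cdh26 1.69 (SE 1.29), all with an adjusted p of 0.956 by edgeR.

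In HSCR libraries the members were lower in the distal than in the proximal colon in 72 of 82 cases, with a median log2 fold change of -0.66, whereas 52.2% of all genes were lower with a median of -0.03. The members' median was -0.33 without HSCR distal 2. Unadjusted p was under 0.05 for 5 members, all lower (6.1%; Cdh7, Cdh12, Pcdha10, Pcdha12 and Pcdhac1), against 2.56% of all genes, 1.36% higher and 1.2% lower. By edgeR 0 members and 0.0% of genes were called, and DESeq2 called 0 with 4 members at an unadjusted p under 0.05 against 3.65% of all genes. A fit and filter of the 2 HSCR groups alone gave 0 of 68 tested members at an unadjusted p under 0.05, against 1.49% of all genes. With RUVr factors 0 members and 1.82% of genes were called, and with replicates 3 and 4 alone 3 members (Cdh2, Pcdha12 and Pcdhac2) and 2.62% of genes. Cdh12 was at 0.275, 0.658, 0.404 and 0.859 CPM in HSCR proximal and at 0.0572, 0, 0 and 0.184 in HSCR distal libraries. It was the 1 member (1.22%) without overlap, against 0.682% of all genes lower, with a log2 fold change of -3.06 (SE 1.30, adjusted p = 1 by edgeR). The other 4 had no count in HSCR distal libraries and were at least 4.04-fold (Pcdha12), 3.21-fold (Pcdhac1), 1.76-fold (Pcdha10) and 1.42-fold (Cdh7) lower than their HSCR proximal means. Those means were 0.351 ± 0.462, 0.279 ± 0.318, 0.153 ± 0.203 and 0.123 ± 0.165 CPM (SD, n = 4), each below its SD. The fitted Pcdha median of -3.92 became -1.68 with genes at 0 in HSCR distal libraries set to their bounds. The libraries labelled HSCR proximal 1 and HSCR distal 1 carry the opposite Hoxd13 levels, and without them 5 of 85 members had an unadjusted p under 0.05, against 7.45% of all genes, among them Cdh2 at -3.11 (SE 1.03, adjusted p = 0.627 by edgeR).

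Whether the genotype difference itself differed between segments was tested as an interaction. No member was called by edgeR or DESeq2, 0 members had an unadjusted p under 0.05 by either tool, and 1.44% of all genes did by edgeR (0.602% higher and 0.843% lower), with 0.0% called and 0.0322% called by DESeq2. With RUVr factors 1 member (Pcdhgc5) and 1.56% of genes were called, and with replicates 3 and 4 alone 1 member (Cdh2, log2 value -3.41, adjusted p = 0.014 by edgeR) and 0.685% of genes. The largest fitted interactions were those of Pcdha12, Pcdha10 and Pcdhac1 (unadjusted p = 0.0845, 0.0796 and 0.0946), genes at 0 in HSCR distal libraries. Pcdh10 had 0.35 (SE 1.77) and Cdh8 -0.52 (SE 2.24), standard errors too wide to tell equal from unequal differences. Without both HSCR libraries labelled 1 both signs turned, to -1.22 (SE 1.76) for Pcdh10 and 5.14 (SE 2.96) for Cdh8, which then had no count in HSCR proximal libraries.

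Partners of the cadherins were read from lists chosen with earlier results of these data known, and 0 of their genes were called in any comparison by edgeR. Among 14 catenins and other armadillo partners, which link cadherins to actin, 3 had an unadjusted p under 0.05 in the proximal colon: Ctnna2, the neuronal alpha catenin, with a log2 fold change of -1.62 (SE 0.70), Arvcf with -1.18 (SE 0.55) and Jup, plakoglobin of junctions, with 0.92 (SE 0.40). In the distal colon Ctnna2 had -2.27 (SE 0.72) and Arvcf -1.18 (SE 0.55). The list medians were 0.23 and -0.14. Of 9 Fat, Dachsous and Celsr cadherins, which act in planar polarity, Celsr1 had 1.64 (SE 0.58) in the proximal and Fat2 6.32 (SE 2.24) in the distal colon. Of 8 tested cadherin-related genes and calsyntenins, Cdhr5, a brush border protein, had 4.62 (SE 2.13) in the proximal colon, where 5 of 8 were lower. Of 4 tested desmosomal cadherins, Dsg3 had 5.24 (SE 2.20) in the distal colon. Fat2 had no count in at least 1 library of every group, and Dsg3 in at least 1 WT and 1 HSCR distal library. Cdhr5 had no count in at least 1 WT proximal library, so these fitted values rest in part on libraries at 0. The 8 WAVE complex genes and the 9 regulators of clustered protocadherin promoters, which include Ctcf and the cohesin subunits, had no gene at an unadjusted p under 0.05 between genotypes, and their medians lay between 0.01 and 0.20. Of 6 kinases and proteases that act on cadherins, Fyn had -0.93 (SE 0.36) in the proximal colon. Between segments Wapl (0.56) and Wasf2 (0.77) in WT and Smc3 (0.51) in HSCR had an unadjusted p under 0.05. By edgeR this limit was passed by 7.06% of all genes between genotypes in proximal libraries and by 3.8% in distal ones. For the segments the shares of all genes were 4.83% in WT and 2.56% in HSCR. Whether the partner lists held more such genes than these shares was not tested, so the genes named are no findings by themselves.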

How the data were processed

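RNA-seq libraries of LMMP from 4 WT and 4 HSCR mice per colon segment were analysed from the deposited counts, whole numbers of reads per gene without normalization. According to the labels and the study's methods, the authors aligned reads with HISAT2 2.2.1 to mm39 and counted them with featureCounts 2.0.6 against a GENCODE gene model. The labels describe both strand-specific and other kits, and the strand setting is not given in the sources used here. The deposited FPKM values and the authors' own fold changes and p-values, which hold their comparisons, were not used. The total per library ranged from 21384372 to 45831881 counts, and the common biological coefficient of variation was 0.794, so that the spread between libraries limits precision. No 2 libraries were identical (0 pairs).

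Libraries were grouped by title. All 16 entered 1 fit with 4 groups in edgeR 4.0.16 (filterByExpr, TMM, quasi-likelihood F test), p-values were adjusted over 18619 genes by Benjamini-Hochberg, and a gene was called at an adjusted p under 0.05. This test replaced the likelihood ratio test with RUVr of the study's methods, which was an alternative. CPM used TMM-scaled library sizes, and log2 levels added 0.5 CPM. Standard errors accompany log2 fold changes. A fold against a group at 0 was computed against 3 counts per library. The members, the lists and the tests were chosen with earlier results of these data known. The genes named were the 3 highest of each class, the 6 with the smallest p in each comparison, and others chosen by role. Alternatives were DESeq2 1.42.0, upper-quartile normalization, no filter, the 2 groups alone, a replicate block, the library name series as a term, both libraries labelled HSCR 1 left out, each library left out in turn, and replicates 3 and 4 alone, the last added after seeing the data. The scripts were tested on simulated data.

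Deviations from the group means of same-numbered libraries correlated at 0.641, 0.107, 0.453 and 0.228 between WT proximal and WT distal libraries. Replicates 1 and 2 correlated best with their own number there, and replicates 3 and 4 did not. The main fit treated no libraries as pairs, and the replicate block was an alternative. Between genotypes the correlations were -0.164, -0.0583, 0.298 and 0.381 in the proximal and -0.268, 0.369, 0.0397 and 0.549 in the distal colon. Between HSCR segments they were 0.0522, 0.397, 0.0823 and 0.498. Replicate 4 correlated best with its own number in all 3 of these comparisons, and replicate 2 in the distal and HSCR segment comparisons. Promoter sequences were matched by symbol to a RefSeq table (GRCm38.p6) for 22 of the 92 members, and Cdh1, Cdh2, Cdh5, Cdh17 and Cdh19 had no entry used here. Versions were R 4.3.3, limma 3.58.1, Python 3.11.15, pandas 2.3.3, numpy 2.4.6 and matplotlib 3.10.9.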

Additional observations from a re-analysis of the deposited data

Results flagged for a closer look

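Within groups of 4 libraries, the gap of the highest or lowest library to its nearest neighbor, relative to the whole range, passed Dixon's 95% limit in 8 of 72 groups over the 18 members named for the smallest p-values of the group comparisons. In 5 of them a single library held counts and the others were at 0 CPM: Cdh8 was at 0.55 CPM in the library labelled HSCR proximal 1 and at 0.184 in HSCR distal 4, Pcdha6 at 0.215 in HSCR proximal 4, Pcdhac1 at 1.04 in WT proximal 3 and Pcdhac2 at 0.172 in the library labelled HSCR distal 1. A group with counts in a single library passes that limit by construction, and a group at 0 throughout cannot pass it. The number of flagged groups is therefore not set against a rate by chance. Pcdha6 was at 0.0 CPM in WT distal 1, away from its 3 neighbors. Pcdh9 was low at 0.731 CPM in HSCR proximal 2. Pcdhga12 was high at 2.32 CPM in the library labelled HSCR distal 1.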

How the results depend on the processing

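The count of called members stayed at 0 in all 5 comparisons with DESeq2, upper-quartile normalization, no filter on low counts, the library name series as a term and both libraries labelled HSCR 1 left out, and in the 4 group comparisons with only the 2 groups compared, where the interaction could not be fitted, and with each library left out in turn the called members ranged from 0 to 0. It moved with the likelihood ratio test with 4 RUVr factors, to 8 members in the proximal and 9 in the distal genotype comparison, 5 between WT segments and 1 in the interaction (Pcdhgc5), and with replicates 3 and 4 alone, to 9 in the distal comparison, 3 between HSCR segments (Cdh2, Pcdha12 and Pcdhac2) and 1 in the interaction (Cdh2). The cause was not tested. With the replicate block 0 members were called, and members at an unadjusted p under 0.05 numbered 4, 8, 2, 4 and 2 in the proximal, distal, WT segment, HSCR segment and interaction comparisons against 5, 9, 0, 5 and 0 without the block. With only the 2 groups compared, members at an unadjusted p under 0.05 numbered 7 of 74, 2 of 65, 1 of 74 and 0 of 68 in the first 4 comparisons. The shares of all genes were 6.62%, 2.64%, 5.23% and 1.49%. Leaving out single libraries moved that number between 2 (without HSCR proximal 2) and 9 (without WT proximal 1) in the proximal and between 7 (without WT distal 4) and 15 (without WT distal 1) in the distal comparison, between 0 and 3 in WT segments, 0 (without HSCR distal 3) and 8 (without HSCR proximal 1) in HSCR segments, and 0 and 3 in the interaction. The median of the members went from -0.41 (without HSCR proximal 4) to 0.23 (without HSCR proximal 2) in the proximal comparison, from -0.93 (without WT distal 1) to -0.25 (without WT distal 4) in the distal one, from -0.73 (without WT distal 4) to 0.14 (without WT proximal 3) in WT segments and from -0.92 (without HSCR proximal 2) to -0.33 (without HSCR distal 2) in HSCR segments, and the name series term gave -0.23 in the distal comparison. Genes at 0 in many libraries and 4 libraries per group limit what these counts can show.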
